A study of Mus musculus with 28 samples.

Results

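The aryl hydrocarbon receptor genes described here are 6 of the 25124 genes in the expression table of sorted mouse CD4+ T cells. They were taken by symbol: Ahr, the receptor itself; Arnt, its DNA-binding partner; and Ahrr, Tiparp, Cyp1a1 and Cyp1b1, which the receptor is known to switch on. Live CD4+ cells that also carried CD45, CD90.2 and TCRb were taken by sorting from the lamina propria of the small bowel of T-bet-ZsGreen mice, a reporter line that marks cells that use the transcription factor T-bet. All 28 libraries share that reporter and that sorting gate, the stated gate does not name the reporter, and the age of the mice is not given in the sources used here. Colonised mice were kept under specific-pathogen-free (SPF) conditions and germ-free (GF) mice had no flora; both kinds received either aCD3, an antibody that stimulates T cells through CD3, or its isotype control. There were 6 SPF isotype, 10 GF isotype, 6 SPF aCD3 and 6 GF aCD3 libraries, each named by a sex letter and a number. Only 1 of the 6 GF aCD3 libraries was from a female, against 3 of 6 in each SPF group and 5 of 10 in GF isotype.

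As background, the receptor is a ligand-activated transcription factor that waits in the cytosol with heat shock protein 90. Dietary indoles and tryptophan products of gut bacteria are among its ligands; once bound, it enters the nucleus, pairs with Arnt and binds DNA at a short core, GCGTG, near its target genes. In intestinal T cells it is best known for its part in the production of interleukin 22. The cytochromes Cyp1a1 and Cyp1b1 oxidise and clear ligands, Ahrr competes with the receptor for Arnt, and Tiparp modifies the receptor with ADP-ribose and so limits it, which makes these targets feedback brakes as well as commonly used readouts of receptor activity.

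The sequence just before each target's start is shown, as each of the 5 members with a sequence window held this core there. RefSeq windows on GRCm38.p6, 250 bases up to the gene start, were found for 5 of the 6 members; Ahr had no entry. Each is written 5′ to 3′ on the gene's own strand, with the core in capitals, GCGTG or, where the core lies on the other strand, CACGC.
Ahrr, chr13:74292332-74292581, minus strand: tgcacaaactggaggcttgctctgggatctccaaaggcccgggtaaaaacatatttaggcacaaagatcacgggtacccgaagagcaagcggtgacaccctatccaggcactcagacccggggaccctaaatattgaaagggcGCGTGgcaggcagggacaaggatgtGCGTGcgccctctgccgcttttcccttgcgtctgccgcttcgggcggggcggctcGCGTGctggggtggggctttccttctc
Tiparp, chr3:65528197-65528446, plus strand: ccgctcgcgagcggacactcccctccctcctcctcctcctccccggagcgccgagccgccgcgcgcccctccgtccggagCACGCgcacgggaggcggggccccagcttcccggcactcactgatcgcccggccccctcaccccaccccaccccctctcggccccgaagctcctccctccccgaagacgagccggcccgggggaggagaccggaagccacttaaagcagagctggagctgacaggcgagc
Cyp1b1, chr17:79715062-79715311, minus strand: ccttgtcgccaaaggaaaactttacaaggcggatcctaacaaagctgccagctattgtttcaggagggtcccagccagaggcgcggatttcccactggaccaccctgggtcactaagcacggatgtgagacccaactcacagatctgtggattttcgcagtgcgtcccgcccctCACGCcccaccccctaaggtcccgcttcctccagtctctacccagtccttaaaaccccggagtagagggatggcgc
Cyp1a1, chr9:57697363-57697612, plus strand: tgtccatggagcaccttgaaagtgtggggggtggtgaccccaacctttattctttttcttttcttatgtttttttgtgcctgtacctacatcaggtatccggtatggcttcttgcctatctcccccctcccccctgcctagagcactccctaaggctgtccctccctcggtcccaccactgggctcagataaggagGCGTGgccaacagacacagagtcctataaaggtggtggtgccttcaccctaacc
The Ahrr window held 3 copies of the core, all on the gene's strand, the nearest ending 23 bases before the start. The windows of Tiparp, Cyp1b1, Cyp1a1 and Arnt each held 1, and those of Tiparp and Cyp1b1 had it on the other strand. At least 1 copy on either strand was found in 28.14% of 32817 windows of all genes and in 44.53% of 11474 windows of the genes tested below; at least 3 copies were found in 2.77% and 5.46%. The longer form TNGCGTG, which overlaps the core, was present in 4.10% of all windows and among the members only in that of Ahrr. A match of letters is a description of the window and not a binding site.

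The values are TPM over the whole genomic span of a gene, introns included, so a level is reads per length of gene body and can be compared between genes only in that sense. Each library had between 6765530 and 17860609 reads in genes. The defining T cell genes Cd3e and Cd4 were at 274 and 166 TPM or more in every library. Histone genes took 4.12% to 7.12% of TPM in SPF isotype and 3.85% to 9.33% in GF isotype, but 23.95% to 27.03% in SPF aCD3, and TPM is a share of a total, so fold changes are also given after median-of-ratios scaling, which sets the typical gene to no change. The GF aCD3 libraries fell apart into sets: M1, M2 and M5 had 498, 452 and 527 TPM of Lag3, an inhibitory receptor that T cells raise on stimulation, whereas F1, M3 and M4 had 9.59, 17.03 and 12.3 TPM, within the 5.41 to 18.5 TPM of the isotype libraries. Histone shares were 23.26% to 26.18% in the former and 5.47% to 7.55% in the latter. SPF libraries have the numbers 1 to 12 in their column names and GF libraries 25 to 33 or 48 to 54, so flora and column range cannot be told apart. In such bulk samples fewer cells of a type and less RNA per cell cannot be told apart either.

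Without stimulation, no member passed the test between germ-free and colonised mice. In the isotype libraries, limma called 0 of the 5 members that passed the filter on low values (1 TPM or more in 6 or more libraries), against 7.17% of the 12182 genes tested (782 higher, 92 lower); 3 of the 5 had an unadjusted p under 0.05. After scaling it was again 0, against 1.67% of genes (63 higher, 141 lower), with 1 unadjusted p under 0.05, and limma-voom on recovered reads also called 0. These percentages are at the adjusted threshold. The share of all genes with an unadjusted p under 0.05 was not counted, so the unadjusted counts are not read further. The members' median log2 fold change was -0.03, beside 0.15 for all genes tested.

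**Figure D1:**
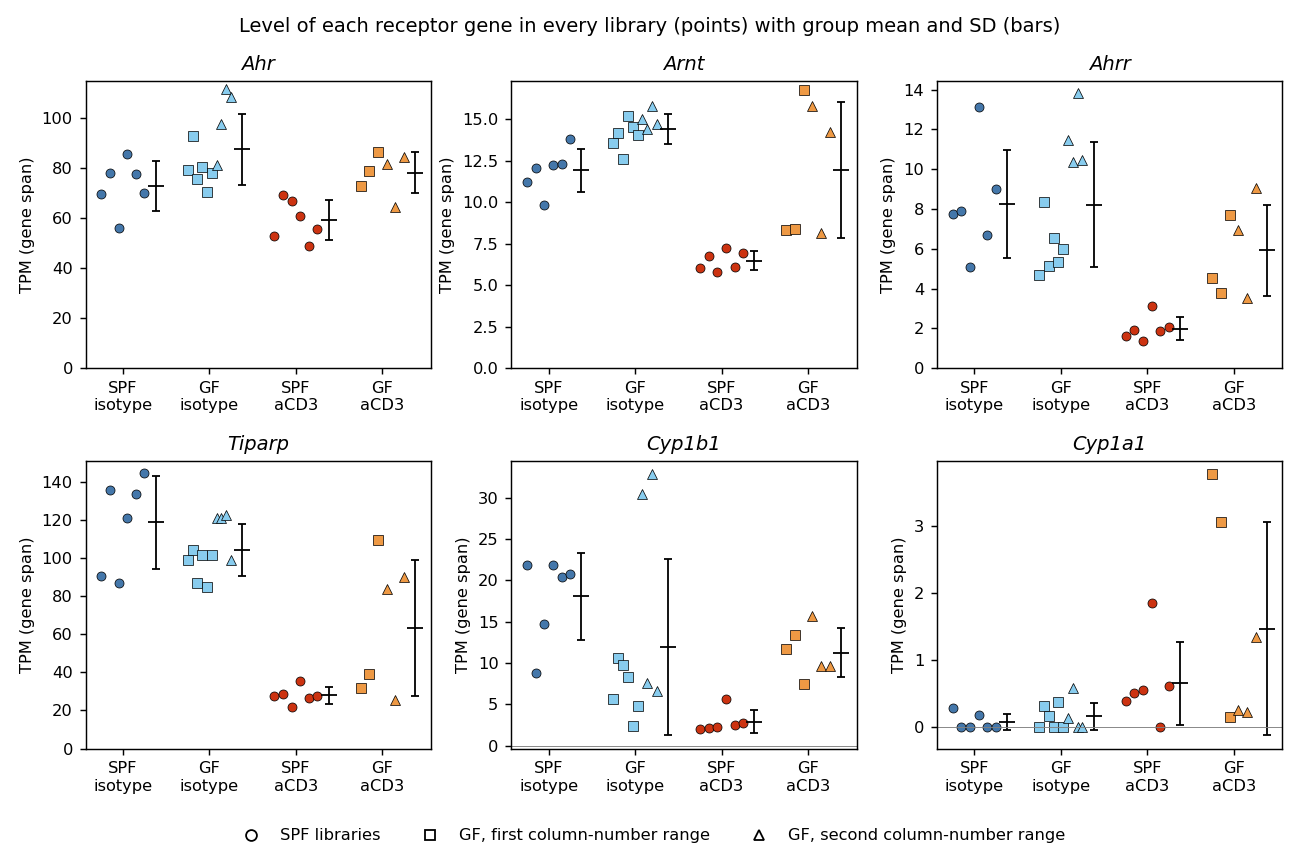
Level of each gene in TPM (linear axes) in every library of the 4 groups, with the mean and SD at the right of each group; squares and triangles mark the GF column ranges 25 to 33 and 48 to 54. The isotype groups overlap in all 6 panels, and SPF aCD3 lies at the bottom for Arnt, Ahrr, Tiparp and Cyp1b1. GF aCD3 is split most widely for Tiparp and Arnt, less so for Ahrr and Ahr, and not for Cyp1b1.

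Ahr (chr12:35497979-35534989 on mm10, minus strand), the receptor, was abundant in every library. It ranged from 55.9 to 85.5 TPM in SPF isotype (median 73.7, n = 6) and from 70.3 to 112 TPM in GF isotype (median 80.7, n = 10). The ranges overlapped, with 4 of 10 GF libraries above every SPF library. Its log2 fold change, GF over SPF, was 0.26 (95% interval 0.04 to 0.48, limma adjusted p = 0.131) and 0.10 after scaling (-0.08 to 0.28, adjusted p = 0.725). An exact two-sided permutation test gave an unadjusted p = 0.0398, and 0.317 after scaling. Against the same SPF libraries the log2 fold change was 0.13 for GF columns 25 to 33 and 0.45 for columns 48 to 54. A long noncoding RNA on the opposite strand overlaps the Ahr span by 569 bases, and the use of strand in counting is not given in the sources used here.

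Arnt (chr3:95434390-95497239, plus strand), the partner shared with hypoxia-inducible factors, ran from 9.86 to 13.8 TPM in SPF isotype (median 12.1) and from 12.6 to 15.8 TPM in GF isotype (median 14.5). Although 8 of 10 GF libraries were above every SPF library, the log2 fold change was only 0.26 (0.01 to 0.51, limma adjusted p = 0.185), with an exact unadjusted p = 0.000375. Scaling brought it to 0.11 (-0.04 to 0.25, limma adjusted p = 0.582), with an exact unadjusted p = 0.017. For the 2 GF column ranges apart it was 0.22 and 0.31. Fitted on the isotype groups alone, without the widely spread GF aCD3 group, Arnt passed the test on deposited TPM. The log2 fold change was the same, 0.26 (limma adjusted p = 0.0202). This fit was not repeated after scaling, and the share of all genes called in it was not counted. That share was 7.17% in the main fit and 20.3% with GF aCD3 F1, M3 and M4 left out. A processed pseudogene on the same strand overlaps the Arnt span by 352 bases.

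Among the targets, Tiparp (chr3:65528447-65555518, plus strand) had the highest levels, from 86.8 to 145 TPM in SPF isotype (median 127) and from 84.6 to 123 TPM in GF isotype (median 102). The groups overlapped, with 2 of 10 GF libraries below every SPF library, and the log2 fold change was -0.17 (-0.64 to 0.29, limma adjusted p = 0.651). After scaling it was -0.33 (-0.69 to 0.02, limma adjusted p = 0.417), with an exact unadjusted p = 0.00649 against 0.185 without scaling. In columns 25 to 33 and 48 to 54 taken apart it was -0.28 and -0.01. A pseudogene on the opposite strand overlaps the Tiparp span by 933 bases.

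Ahrr (chr13:74211118-74292331, minus strand), the repressor, ran from 5.07 to 13.1 TPM in SPF isotype (median 7.84) and from 4.70 to 13.8 TPM in GF isotype (median 7.46). Its log2 fold change was -0.03 (-0.48 to 0.42, limma adjusted p = 0.937), so the interval leaves room for differences of either sign. Within GF isotype the column ranges did not overlap: 4.70 to 8.36 TPM in the 6 libraries numbered 25 to 33 and 10.4 to 13.8 TPM in the 4 numbered 48 to 54. Against SPF isotype, the log2 fold change was -0.37 for the former and 0.47 for the latter, and neither passed (limma adjusted p = 0.2 and 0.247).

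Cyp1b1 (chr17:79706941-79715061, minus strand), the more abundant of the 2 cytochromes here, varied widely within the groups. In SPF isotype it measured 21.9, 8.76 and 14.7 TPM in F1, F2 and F3 and 21.8, 20.4 and 20.8 TPM in M1, M2 and M3. In GF isotype it ran from 2.45 to 32.8 TPM (median 7.99): 6 of 10 libraries were below every SPF library, while F4 and M4, at 32.8 and 30.4 TPM, were above every one. The log2 fold change was -0.86 (-1.55 to -0.16, limma adjusted p = 0.115), and -0.999 after scaling (-1.69 to -0.31, adjusted p = 0.147). The exact unadjusted p was 0.078, and 0.041 after scaling.

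The Cyp1b1 result turned on those few libraries. It passed the test without GF isotype F4 (log2 fold change -1.09) or without M4 (-1.02), and among the libraries numbered 25 to 33 alone (-1.32, limma adjusted p = 0.00308), but not among those numbered 48 to 54 (-0.17, limma adjusted p = 0.807), where both F4 and M4 are found. GF isotype M4 also had the highest summed CD8 T cell markers of its group, 61.2 TPM of 2 genes, against 3.06 TPM in F4. Stromal markers moved with the same groups: the sum of 10 stromal genes was 6.65 to 57.6 TPM in SPF isotype but 0.928 to 4.55 TPM in GF isotype. SPF isotype M1, with the lowest stromal sum of its group, had 21.8 TPM of Cyp1b1. In GF isotype, F4 and M4 had stromal sums of 4.30 and 4.00 TPM. M5, with the highest sum of that group, had 7.63 TPM of Cyp1b1. Summed B and plasma cell markers (8 genes) were 96.5 to 273 TPM in SPF isotype, compared with 11.3 to 115 TPM in GF isotype. The part of these other cells in the Cyp1b1 values was not tested.

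Cyp1a1 (chr9:57697613-57703824, plus strand), the most widely used target gene of the receptor, was hardly detected. It had 0 reads in 4 of 6 SPF isotype and 5 of 10 GF isotype libraries, and 5 and 18 reads in all over the groups, where 3 reads in a library were worth 0.198 to 0.520 TPM. Its highest values were 0.279 TPM (SPF) and 0.582 TPM (GF), and a difference was not detectable at this depth (exact unadjusted p = 0.41). It missed the filter on low values and so has no limma value.

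Some T cell genes linked to the receptor differed between the same libraries. Il22, the cytokine, ran from 14.1 to 47.0 TPM in SPF isotype, while the GF isotype libraries, from 0.690 to 6.95 TPM, did not overlap with them. Its log2 fold change was -2.79 ± 0.39 (SE, limma adjusted p = 0.000133). The share of all genes without overlap between the isotype groups was not counted. Of the 18 genes of this list, all tested, 6 fell in GF isotype, 0 rose and 12 did not pass, with the same counts after scaling, beside 7.17% of all genes called (782 higher, 92 lower) and 1.67% after scaling (63 higher, 141 lower). The list's median log2 fold change was -0.23 beside 0.15 for all genes. Besides Il22 these included Il23r, part of the interleukin 23 receptor (-1.75), Gpr15, a homing receptor known as a receptor target (-1.57), Il1r1 (-1.29) and, named after its value was seen, the chemokine receptor Ccr6 (-1.24). Gpr15 had means of 18.3 ± 6.96 TPM (SD, n = 6) in SPF isotype, against 5.45 ± 2.48 TPM (n = 10) in GF isotype, with 8 of 10 GF libraries below every SPF library. Several of these genes also mark Th17 cells, and the number of such cells was not measured. The stromal sum had medians of 34.3 TPM in SPF and 1.96 TPM in GF isotype, and the B and plasma cell sum 181 and 34.3 TPM. Summed innate lymphoid markers (5 genes) overlapped, at 72.0 to 114 and 31.5 to 218 TPM. The part of other cells in the values of this list was not tested.

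**Figure D2:**
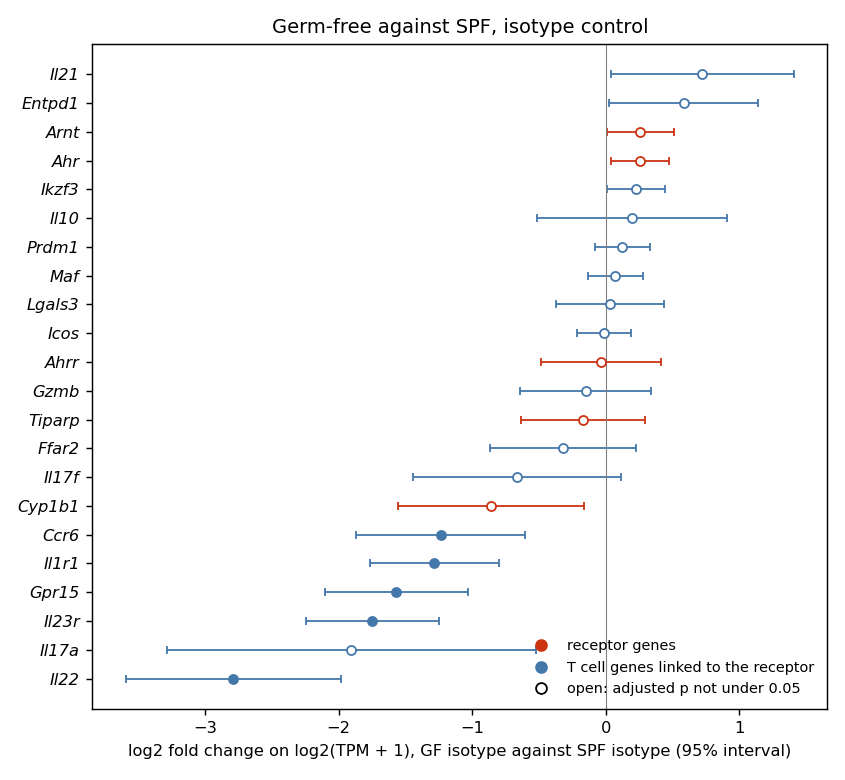
limma log2 fold changes with 95% intervals, GF isotype against SPF isotype, of the 5 tested receptor genes (red) and 17 of the 18 T cell genes linked to the receptor (blue); filled points passed an adjusted p of 0.05. All 5 filled points are blue and lie at -1.24 or lower, while the receptor genes lie between -0.86 and 0.26 with open points.

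Of 13 tested genes of the receptor complex and its relatives (14 listed), 2 rose in GF isotype and 0 fell, beside 7.17% of all genes called, and after scaling 0 passed in either direction. Epas1, a hypoxia-inducible factor that also pairs with Arnt, was among those that rose, from 10.5 ± 2.26 to 20.7 ± 7.36 TPM (log2 fold change 0.85, limma adjusted p = 0.0194; 0.70 after scaling, adjusted p = 0.0593). Hif1a, another partner of Arnt, was at 96.9 ± 11.5 and 100.8 ± 12.6 TPM (0.06, limma adjusted p = 0.834). Only 4 of 12 xenobiotic genes and 5 of 12 genes of tryptophan breakdown and uptake reached the filter, and 0 of either list was called. Nqo1, a detoxifying reductase often used as a readout, was below the filter at group means of 0.215 (SPF) and 0.232 TPM (GF).

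Tiparp, Cyp1b1, Ahrr and Arnt were lower after stimulation in SPF mice. Between SPF aCD3 and SPF isotype, 5 of 5 tested members fell, against 64.8% of all genes called (1726 higher, 6172 lower), and 4 of 5 after scaling, against 60.0% (3679 higher, 3628 lower); with so high a background the counts say little about these genes, and the sizes follow. The median of all genes shifted by -0.35 in this comparison without scaling and by -0.01 with it. How many of all genes had no overlap between these groups was not counted. Lack of overlap in the values below is thus not shown to be particular to the members.

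Tiparp fell furthest in TPM. It was 22.0 to 35.4 TPM in SPF aCD3 (median 27.5), below every SPF isotype library. The log2 fold change was -2.04 ± 0.25 (SE, limma adjusted p = 1.82e-06) and -1.63 after scaling (adjusted p = 8.17e-07).

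Cyp1b1 ran from 2.05 to 5.65 TPM in SPF aCD3 (median 2.35), again below all 6 isotype libraries. Its log2 fold change was -2.29 ± 0.38 (limma adjusted p = 2.04e-05), and -1.98 after scaling (adjusted p = 8.83e-05). M1 stood apart at 5.65 TPM, while the other 5 libraries were at 2.05 to 2.77 TPM. The stromal sum was at most 2.96 TPM in SPF aCD3, against 6.65 to 57.6 TPM in SPF isotype, and the B and plasma cell sum at most 9.16 TPM against at least 96.5 TPM; their part was not tested.

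Ahrr was 1.39 to 3.12 TPM in SPF aCD3 (median 1.90), with no overlap with SPF isotype, and fell by 1.60 on the log2 scale (SE 0.25, limma adjusted p = 1.1e-05) and by 1.31 after scaling (limma adjusted p = 1.23e-05). Arnt, at 5.83 to 7.27 TPM (median 6.44), likewise did not overlap with SPF isotype. It fell by 0.78 (SE 0.14, limma adjusted p = 3.56e-05) and by 0.42 after scaling (limma adjusted p = 9.58e-05).

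Ahr itself was 49.03 to 69.3 TPM in SPF aCD3 (median 58.3), with 3 of 6 libraries below every SPF isotype library. Its fall of 0.29 (SE 0.12, limma adjusted p = 0.032) was smaller than the shift of the median gene and changed sign after scaling to 0.11 (-0.09 to 0.32, adjusted p = 0.324). Leaving out any 1 of 6 libraries (SPF isotype F2, M1 or M2, SPF aCD3 F1, M2 or M3) also ended its call, with log2 fold changes of -0.24 to -0.28. No direction can therefore be given for Ahr.

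Cyp1a1 was the member that pointed the other way. It had 0 to 1.85 TPM in SPF aCD3 and 45 reads over the 6 libraries, against 5 reads in SPF isotype, and 5 of 6 libraries were above every isotype library. An exact two-sided permutation test gave an unadjusted p = 0.0195 for a difference of 0.55 in mean log2(TPM + 1), and M1 alone held 21 of the 45 reads.

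**Figure D3:**
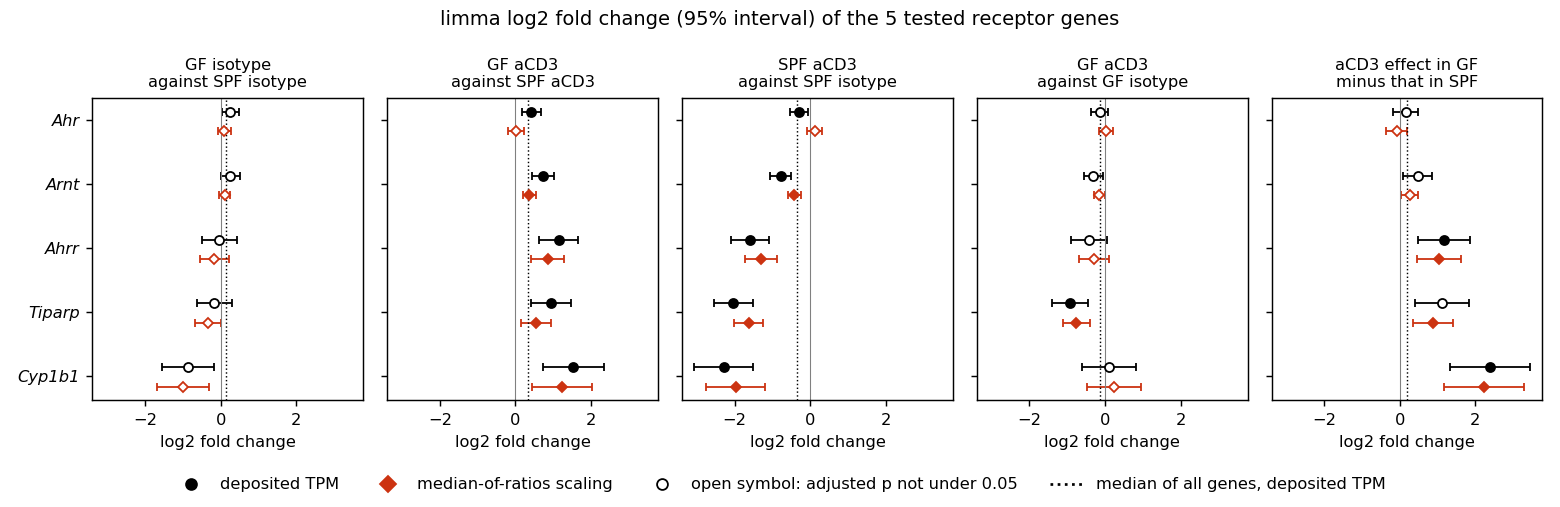
limma log2 fold changes with 95% intervals of the 5 tested members in 5 comparisons, on deposited TPM (black circles) and after median-of-ratios scaling (red diamonds); filled symbols have an adjusted p under 0.05, and the dotted line is the median of all genes on deposited TPM. Cyp1b1, Tiparp, Ahrr and Arnt are filled in both colours in the SPF comparison of aCD3 with isotype, and Ahr is filled only in black.

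In germ-free mice the response was uneven, and the members did not all follow the split of the libraries. Between GF aCD3 and GF isotype, 1 of 5 members was called, Tiparp, against 7.08% of all genes (300 higher, 562 lower), and it was again 1 after scaling, against 9.65% (685 higher, 490 lower). Libraries F1, M3 and M4 had isotype-like Lag3 although labelled aCD3, and the group means below mix them with the rest.

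Tiparp was 31.5, 38.9 and 25.5 TPM in GF aCD3 M1, M2 and M5, and 90.1, 109 and 83.8 TPM in F1, M3 and M4. In the first set M1 and M5 lay within the range of SPF aCD3 (22.0 to 35.4 TPM) and M2 just above it; in the second F1 and M3 lay within the range of GF isotype (84.6 to 123 TPM) and M4 just under it. Over all 6, the log2 fold change was -0.92 ± 0.23 (SE, limma adjusted p = 0.0481; -0.76 after scaling, adjusted p = 0.0399). This call was lost in 25 of 28 fits that left out 1 library, and kept only without F1, M3 or M4 of GF aCD3. Within columns 25 to 33 the value was -0.98 (limma adjusted p = 0.028) and within columns 48 to 54 it was -0.99 (limma adjusted p = 0.356).

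Arnt followed the same division. It was 8.32, 8.37 and 8.17 TPM in M1, M2 and M5, below every GF isotype library, and 14.3, 16.8 and 15.8 TPM in F1, M3 and M4, of which M3 and M4 were above every GF isotype library. The overall log2 fold change was -0.31 (-0.57 to -0.05, limma adjusted p = 0.0908), and -0.41 and -0.27 within the column ranges.

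Ahrr was 4.53, 3.80 and 3.52 TPM in M1, M2 and M5, below every GF isotype library, and 9.06, 7.70 and 6.95 TPM in F1, M3 and M4, within the 4.70 to 13.8 TPM of GF isotype. Its overall log2 fold change was -0.42 (-0.89 to 0.04, limma adjusted p = 0.177), and -0.29 and -0.82 within the column ranges. Ahr was 72.9, 78.7 and 64.5 TPM in M1, M2 and M5 and 84.4, 86.2 and 81.8 TPM in F1, M3 and M4, so these sets did not overlap either, at a smaller distance (log2 fold change -0.14, -0.36 to 0.09, limma adjusted p = 0.353).

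Cyp1b1 did not divide with Lag3. It was 11.7, 13.4 and 9.70 TPM in M1, M2 and M5, and 9.71, 7.43 and 15.7 TPM in F1, M3 and M4. All 6 values lay inside the GF isotype range, and the log2 fold change was 0.10 (-0.62 to 0.82, limma adjusted p = 0.851), with 0.37 within columns 25 to 33 and -0.46 within columns 48 to 54, neither of which passed. Cyp1a1 reached its highest values in this group, 3.78 TPM (32 reads) in M1, 3.06 TPM (40 reads) in M2 and 1.34 TPM (13 reads) in F1, while M3, M4 and M5 had 2 reads each; the exact unadjusted p against GF isotype was 0.0107.

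**Figure D4:**
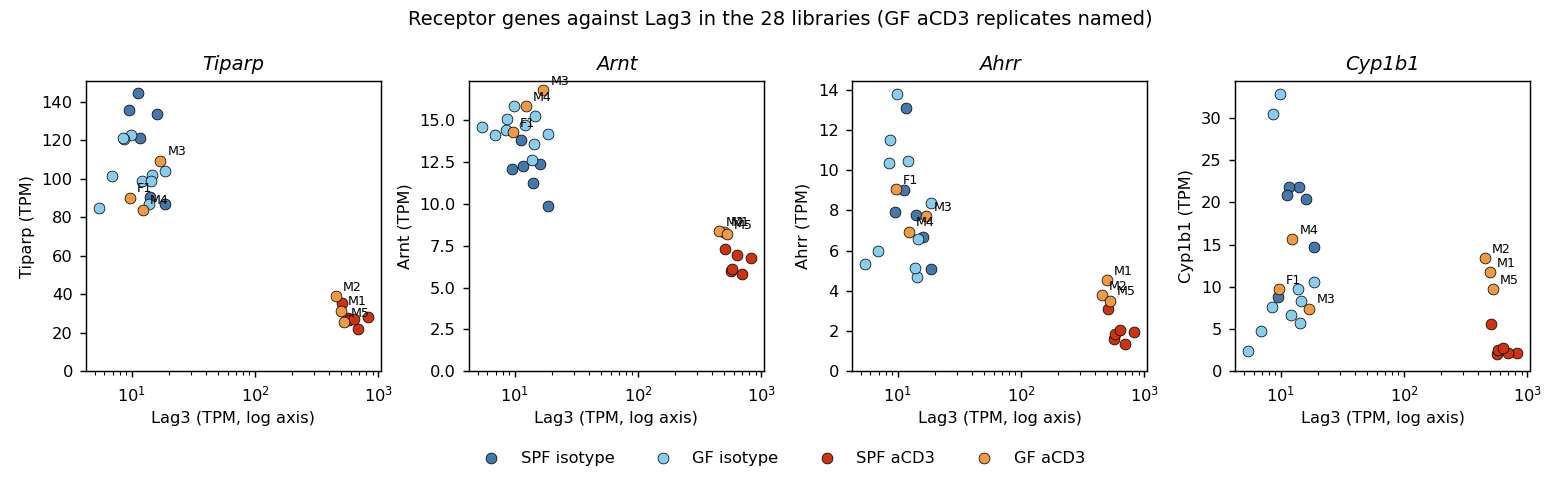
Tiparp, Arnt, Ahrr and Cyp1b1 (TPM, linear axes) against Lag3 (TPM, log axis) in the 28 libraries, with the GF aCD3 replicates named. For Tiparp and Arnt, M1, M2 and M5 lie nearer to SPF aCD3 and F1, M3 and M4 within or close to the isotype libraries; for Cyp1b1 all 6 lie between 7.43 and 15.7 TPM, above SPF aCD3.

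Set against SPF aCD3, the GF aCD3 libraries had more of the members. All 5 tested members were higher, against 53.3% of all genes called (5953 higher, 543 lower), and 4 after scaling, against 32.7% (1956 higher, 2032 lower); Ahr was the exception (0.41, limma adjusted p = 0.00722, and 0.01 after scaling, limma adjusted p = 0.951). Cyp1b1 was higher by 1.53 on the log2 scale (SE 0.39, limma adjusted p = 0.00269; 1.23 after scaling, adjusted p = 0.0191). Its lowest GF aCD3 library, at 7.43 TPM, was above the highest SPF aCD3 library, at 5.65 TPM, and its mean was 11.3 ± 2.96 against 2.89 ± 1.38 TPM (SD, n = 6 each). Jchain, the joining chain of plasma cell immunoglobulin, was also higher, by 2.00 (limma adjusted p = 0.0392; 1.75 after scaling, adjusted p = 0.0824), and the sum of the 8 B and plasma cell markers was 2.95 to 9.16 TPM in SPF aCD3 and 6.87 to 98.8 TPM in GF aCD3. By library, that sum was 6.87, 8.57 and 7.82 TPM in GF aCD3 M1, M2 and M5. It was 19.7, 98.8 and 31.1 TPM in F1, M3 and M4. The part of these and other cells in the Cyp1b1 values was not tested.

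Ahrr and Arnt also had no overlap, with log2 fold changes of 1.15 (SE 0.25, limma adjusted p = 0.00115) and 0.74 (SE 0.14, limma adjusted p = 0.00054). After scaling these were 0.85 (limma adjusted p = 0.00556) and 0.37 (limma adjusted p = 0.0026). The median of all genes differed by 0.34 on deposited TPM and by 0.00 after scaling. The share of all genes without overlap between these groups was not counted. Lack of overlap is thus not shown to be particular to Cyp1b1, Ahrr and Arnt. For Ahrr and Arnt the libraries with high Lag3 were nearest to SPF aCD3: the lowest GF aCD3 values were 3.52 and 8.17 TPM, beside highest SPF aCD3 values of 3.12 and 7.27 TPM. Tiparp was higher by 0.94 (SE 0.26, limma adjusted p = 0.00478), and by 0.54 after scaling (limma adjusted p = 0.0371), but only 4 of 6 libraries were above every SPF aCD3 library. Its exact unadjusted p was 0.026, and 0.0801 after scaling. Cyp1a1 gave an exact unadjusted p = 0.364. With GF columns 25 to 33 alone and with columns 48 to 54 alone, the log2 fold changes were 1.34 and 1.67 for Cyp1b1, 0.94 and 1.25 for Ahrr, 0.60 and 0.83 for Arnt, 0.77 and 1.03 for Tiparp, and 0.4036 and 0.3902 for Ahr, on deposited TPM.

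With GF aCD3 F1, M3 and M4 left out, a choice made after the values were seen and by an outcome of the same libraries, limma called 0 of 5 members between GF aCD3 and SPF aCD3, beside 3.52% of all genes (339 higher, 90 lower), where all 6 libraries had given 53.3%. The log2 fold change of Cyp1b1 was still 1.505 (limma adjusted p = 0.0876), while that of Tiparp came down to 0.10, of Arnt to 0.29 and of Ahrr to 0.66. With these libraries out, 3 members were called between GF aCD3 and GF isotype, Tiparp, Arnt (-0.75) and Ahrr (-0.91), beside 59.6% of all genes. The counts were 1 between the isotype groups, beside 20.3% of all genes, and 0 for the difference of the aCD3 effect, beside 0.0493%. No test is read from this selection.

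The difference of the aCD3 effect, GF minus SPF, was tested in the same fit. It was called for 2 of 5 members, against 3.48% of all genes (297 higher, 127 lower), and for 3 after scaling, against 11.3% (646 higher, 735 lower). Cyp1b1 differed most, by 2.39 (1.34 to 3.45, limma adjusted p = 0.0202; 2.23 after scaling, adjusted p = 0.0134), with -2.29 in SPF and 0.10 in GF. Jchain differed in the same direction, by 4.42 (limma adjusted p = 0.0288), and the part of B and plasma cells in this difference was not tested. Without GF aCD3 F1 the value was 2.33 and missed the threshold (limma adjusted p = 0.0593). With GF columns 25 to 33 alone it was 2.66 (limma adjusted p = 0.00412), and with columns 48 to 54 alone 1.84 (limma adjusted p = 0.115). Ahrr differed by 1.18 (0.49 to 1.87, limma adjusted p = 0.0484), a call lost in 20 of 28 fits that left out 1 library and kept without SPF isotype F3, SPF aCD3 M1, GF isotype F4, M4 or M5, or GF aCD3 M1, M2 or M5. Its values in the column ranges were 1.31 (limma adjusted p = 0.038) and 0.78 (limma adjusted p = 0.175). Tiparp gave 1.11 (0.40 to 1.82, limma adjusted p = 0.0578, and 0.0365 after scaling), Arnt 0.48 (0.09 to 0.86, adjusted p = 0.093) and Ahr 0.16 (-0.18 to 0.49, adjusted p = 0.507).

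In the other lists, that difference was called on deposited TPM for 1 of 4 xenobiotic genes (lower), 3 of 18 T cell genes (1 higher, 2 lower), and 0 of the 13 receptor complex and 5 tryptophan genes tested, beside 3.48% of all genes. After scaling the calls, beside 11.3% of all genes, were 4 higher and 1 lower in the receptor complex, 1 higher and 2 lower among the xenobiotic genes, 1 higher and 6 lower among the T cell genes, and 0 of the tryptophan genes. Gstm1, a glutathione transferase, rose in SPF aCD3 from 0.652 to 7.66 TPM and was at 0.444 and 2.12 TPM in GF isotype and GF aCD3 (difference -1.69, limma adjusted p = 0.0269). Il17f (-2.39) and the lectin Lgals3 (-1.13) were likewise lower, and Il23r (1.29) higher. Il22 gave -0.14 (-1.37 to 1.08, limma adjusted p = 0.887) and stayed without overlap between GF aCD3, at 0.378 to 8.67 TPM, and SPF aCD3, at 10.0 to 58.7 TPM. Gpr15 gave 0.52 (-0.30 to 1.33, limma adjusted p = 0.367). Hif1a, at 207 ± 22.2 TPM in SPF aCD3 and 137 ± 47.3 TPM in GF aCD3, gave -0.72 (limma adjusted p = 0.0577, and 0.0333 after scaling). Nqo1 stayed low, at means of 0.574 and 0.303 TPM in SPF and GF aCD3.

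The order of group means differed between members. Ahr was highest in GF isotype (87.5 ± 14.3 TPM, SD, n = 10), then GF aCD3 (78.1 ± 8.13), SPF isotype (72.8 ± 10.1) and SPF aCD3 (59.1 ± 8.03), with neighbours in that order closer than the larger of their SDs except for the last step. Arnt ran from 14.4 ± 0.892 TPM in GF isotype through 11.95 ± 4.09 in GF aCD3 and 11.9 ± 1.31 in SPF isotype to 6.49 ± 0.581 in SPF aCD3, the means of GF aCD3 and SPF isotype being close and the last step well beyond both SDs. Tiparp fell from SPF isotype (119 ± 24.4) through GF isotype (104 ± 13.5) and GF aCD3 (63.2 ± 35.5) to SPF aCD3 (27.9 ± 4.33), and only its middle step exceeded both SDs. Ahrr had nearly equal means in SPF isotype (8.26 ± 2.72) and GF isotype (8.22 ± 3.15), then 5.93 ± 2.29 in GF aCD3 and 2.00 ± 0.600 in SPF aCD3, where again 1 step, the last, exceeded both SDs. Cyp1b1 ran from SPF isotype (18.1 ± 5.28) through GF isotype (11.9 ± 10.7) and GF aCD3 (11.3 ± 2.96) to SPF aCD3 (2.89 ± 1.38), with the first steps within the SD of GF isotype. Per length of gene span, Tiparp and Ahr were the most abundant members in every group and Cyp1a1 the least.

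Across the 28 libraries, after scaling, the pair of members with the highest Pearson r was Arnt and Tiparp (r = 0.846, Spearman rho = 0.619; r = 0.851 around the group means), and the pair with the highest Spearman rho was Ahrr and Tiparp (rho = 0.795, r = 0.826; r = 0.538 around the group means), while Ahr had an r of -0.238 to 0.099 with the others (-0.269 to 0.395 around the group means). Among 7569 genes with a mean of at least 5 TPM, those most like Tiparp were Gpbp1 (r = 0.977), Ndel1 (0.968) and Themis (0.966), and those most like Arnt were Lpxn (0.973), St8sia4 (0.963) and Cdk17 (0.957). Ahrr was most like Mvb12b (0.939), Nt5dc1 (0.931) and Plcl2 (0.920). Cyp1b1 had weaker likenesses, to Gapdh (0.737), Pde4dip (0.737) and Ahrr (0.717), and Ahr to Lztfl1 (0.686), Slc35b4 (0.679) and Parp12 (0.638). These points share libraries, depth and the contrast of stimulated with unstimulated cells.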

How the data were processed

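Bulk RNA-seq of 28 libraries in 4 groups was used. The deposited values are TPM, computed by the authors with HOMER's analyzeRepeats.pl on mm10 with transcripts condensed to genes, per the file headers; in 99.24% of rows the length equals the genomic span. Aligner settings, read filters and strand are not given in the sources used here. The labels name both a total RNA kit and polyA RNA. The table's 26 columns that match no sample were not used. In the low values checked, TPM times length came out as whole reads (100.0%, tolerance 0.1 read), which gave the read numbers; floors of 3 reads cover counting error only, as reads are not independent molecules.

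The filter asked for 1 TPM or more in 6 or more libraries; the 12182 genes left were tested with limma 3.58.1 (R 4.3.3) on log2(TPM + 1), with group means and a sex term, moderated with a trend, and Benjamini-Hochberg adjustment within each of 5 comparisons at a threshold of 0.05; this scale understates changes of low genes. Single members were also compared by exact two-sided permutation of mean log2(TPM + 1), unadjusted. Of the libraries, 0 pairs held identical values. The labels do not say whether replicates are separate animals or preparations, so p-values measure the spread between these samples. The script was tested on simulated data. Python 3.11.15 made the tables and matplotlib 3.10.9 the figures. No other comparison of the series was made.

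The members and gene lists were chosen with earlier results of these data known. All 6 members are named; from each list, at most 4 called genes with the lowest p per comparison (GF against SPF isotype, and the difference of the aCD3 effect), plus Il22, Gpr15, Nqo1 and Hif1a; some genes of the lists are counted but not reported by name here. The 3 most alike genes have a mean of at least 5 TPM and no Gm, Rik or Mir symbol. Alternatives were pseudocounts, filters, scaling, covariates, a replicate block, column ranges, limma-voom and single libraries left out.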

Additional observations from a re-analysis of the deposited data

Results flagged for a closer look

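In SPF aCD3, replicate M1 lay far from the other 5 libraries for both cytochromes. Its Cyp1b1 was 5.65 TPM (5.649 in the table), and the others were at 2.05 to 2.77 TPM. Its Cyp1a1 was 1.85 TPM (1.846), and the others were at 0 to 0.604 TPM. Of 24 sets of values checked, 2 had such a library, and chance marks about 1 set in 20.

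The aCD3 effect differed between GF and SPF for Cyp1b1, by 2.39 on the log2 scale (limma adjusted p = 0.0202), and for Ahrr, by 1.18 (limma adjusted p = 0.0484), each by a test of the difference itself. Over the alternatives run, leaving aside single libraries, the adjusted p ran from 0.0019 to 0.175 for Cyp1b1 and from 0.0192 to 0.564 for Ahrr.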

How the results depend on the processing

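For GF isotype against SPF isotype, 1 member in place of 0 was called when only the groups compared were fitted, with the replicate block, with GF columns 25 to 33 only, and with GF aCD3 F1, M3 and M4 left out together; single libraries left out gave 0 to 1. For GF aCD3 against SPF aCD3 that last choice gave 0 in place of 5. For GF aCD3 against GF isotype the count of 1 became 0 with a pseudocount of 0.1, no filter, only the groups compared, the replicate block or columns 48 to 54, became 3 with those 3 libraries out, and ran from 0 to 2 over single libraries. For the difference of the aCD3 effect the count of 2 became 1 with a pseudocount of 5, no filter or the replicate block, 0 with columns 48 to 54 or those 3 libraries out, and ran from 0 to 4 over single libraries. Scaling moved the calls over all 4 other lists from 0 to 1 (GF aCD3 against GF isotype) and from 4 to 15 (difference). The cause was not tested. The share of all genes called was counted only for the main fit, after scaling and with those 3 libraries out. With them out it moved as well, from 7.17% to 20.3% between the isotype groups. Between GF aCD3 and SPF aCD3 it went from 53.3% to 3.52%. The moved counts are therefore not read as results about the members.

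The log2 fold changes that changed sign missed the threshold in those settings. Ahrr, GF isotype against SPF isotype, was 0.0283 with the column range as a covariate and 0.47 with columns 48 to 54, and ran from -0.1457 to 0.0988 over single libraries. Ahr was 0.11 (scaled; also in the exact test) and 0.0774 (voom) for SPF aCD3 against isotype, 0.0274 (scaled; 0.0292 in the exact test) and 0.0033 (voom) for GF aCD3 against isotype, and -0.0865 (scaled), -0.0587 (columns 48 to 54) and -0.074 (voom) for the difference. Cyp1b1, GF aCD3 against isotype, was -0.0033 with the range as a covariate and -0.46 with columns 48 to 54, and ran from -0.0208 to 0.3071 over single libraries. SPF aCD3 against isotype kept the calls of Tiparp, Arnt, Ahrr and Cyp1b1 under every alternative run.

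The replicate block made Cyp1b1 pass in GF isotype against SPF isotype (-1.24, limma adjusted p = 0.00505). Deviations of same-named samples correlated from -0.213 to 0.209 over 12 pairs, so the names are not shown to pair animals. Depth limits Cyp1a1 and Nqo1, which lie near 3 reads in many libraries.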

Other observations

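The myeloid marker sum was highest in SPF aCD3 (55.0 to 106 TPM, 10 genes), and Cd68 made up nearly all of it (mean 76.5 TPM), with the macrophage genes C1qa at 0 in all 6 libraries and Csf1r at most 0.161 TPM. GF aCD3 M3, M4 and F1 had 89.3, 25.4 and 16.95 TPM of the plasma cell gene Jchain, and M1, M2 and M5 had 0.181, 1.06 and 0.991 TPM.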
